A study of Mus musculus with 29 samples.

Results

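The Wnt ligands, the Frizzled receptors (Fzd) and the secreted inhibitors of the Sfrp and Dkk families were followed through 332 windows of a gene methylation table, out of 260686 windows in all. A window was included when it lay on an autosome and the table named it for a gene whose symbol began with Wnt, Fzd, Sfrp or Dkk followed by a digit. This rule gave 38 gene names of 39260, namely 19 Wnt genes (208 windows), 11 Fzd names (71 windows), 4 Sfrp genes (23 windows) and 4 Dkk genes (30 windows). Fzd10os, counted among the Fzd names, is an opposite-strand transcript beside Fzd10 and not a receptor. In 34 of the windows another annotated gene overlapped the same bases.

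Lung DNA of Balb/c offspring, described in the study's methods as 13-week-old females, was profiled by whole genome methyl-sequencing (WGMS), which reads methylated cytosines after enzymatic conversion of the unmethylated ones. The dams had received saline (Sham) or PM2.5, which is fine airborne particulate matter, through the nose before and during pregnancy and until weaning, and the offspring themselves were not given PM2.5. Offspring were sensitised and challenged with ovalbumin (OVA), an egg allergen that sets off allergic airways disease in mice, or were kept as unchallenged controls, which gave 7 libraries each of the Sham, Sham-OVA and PM groups and 8 of the PM-OVA group. The labels name neither the dam nor the litter, so p-values measure the spread between these libraries and littermates cannot be told apart from unrelated offspring.

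Wnt proteins are secreted, lipid-modified ligands that bind Frizzled receptors on the cell surface. In the canonical branch this stabilises beta-catenin, which acts in the nucleus with TCF and LEF factors, whereas other branches steer cell polarity and calcium signalling. Sfrp proteins bind Wnts outside the cell, and most Dkk proteins block the LRP co-receptors. In the lung the pathway is known for its part in branching, epithelial progenitor maintenance and repair.

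Each value is a %DNAm score, the mean percentage of methylated calls over the bases of a window, and differences are given in percentage points. Every window here held 50 to 53 CpG dinucleotides and was 236 to 9862 bp long, with a median CpG density of 16.4 per kb against 10.5 per kb over the table. The table gives no read counts, and sequencing depth per value is not known. Between 258952 and 260135 windows were filled per library, and all 332 windows had a value in all 29 libraries. The library labelled Sham replicate 1 had a value in 1224 of 1230 Y-linked windows where the others had 29 to 46, and values without it are given for the DMRs, the counts over all member windows, the start windows whose call it changed, and 10 gene means. In whole lung tissue, a change in the share of a cell type and a change of methylation within cells cannot be told apart.

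Short stretches of 150 bases show the kinds of sequence behind the results. The first pair lies in the windows of Fzd7 and Wnt6 that shifted most after OVA, and in each the stretch with the most CpG was taken. The second pair lies directly before the annotated gene starts of Wnt5b, which was nearly free of methylation, and Wnt8b, which was largely methylated. All read 5′ to 3′ on the strand of the gene, with every CpG in capitals, and the Wnt5b and Wnt8b sequences come from RefSeq on GRCm38.p6, the build also used for the Fzd7 and Wnt6 stretches. RefSeq start sequences were at hand for 25 of the 38 gene names. The Fzd7 stretch (chr1:59483788-59483937, plus strand) holds 15 CpG, the Wnt6 stretch (chr1:74782548-74782697, plus strand) 11, the Wnt5b stretch (chr6:119544348-119544497, minus strand) 23 and the Wnt8b stretch (chr19:44493322-44493471, plus strand) 4.
Fzd7: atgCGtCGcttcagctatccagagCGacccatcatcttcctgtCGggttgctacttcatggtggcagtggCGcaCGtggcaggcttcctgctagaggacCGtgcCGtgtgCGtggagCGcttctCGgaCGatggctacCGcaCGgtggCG
Wnt6: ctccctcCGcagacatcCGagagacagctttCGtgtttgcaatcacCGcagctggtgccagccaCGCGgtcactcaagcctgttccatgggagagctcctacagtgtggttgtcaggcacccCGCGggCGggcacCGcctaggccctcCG
Wnt5b: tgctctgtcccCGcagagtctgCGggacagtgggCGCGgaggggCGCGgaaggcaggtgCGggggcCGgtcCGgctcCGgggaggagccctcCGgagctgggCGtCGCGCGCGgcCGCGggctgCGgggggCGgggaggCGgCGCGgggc
Wnt8b: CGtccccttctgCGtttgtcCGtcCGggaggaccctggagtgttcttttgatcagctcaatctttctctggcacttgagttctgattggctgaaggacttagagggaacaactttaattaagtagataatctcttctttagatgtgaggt

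After OVA challenge, 3 of the 332 windows met the definition of a differentially methylated region (DMR), that is, they passed an adjusted p of 0.05 with group means at least 10 percentage points apart. The same 3 windows were called in Sham and in PM offspring at this threshold, and all shifted to higher DNAm. The study's methods use a stricter adjusted p of 0.000001, there with EdgeR. At that value in the limma fit, Wnt6 and Fzd8 were called in Sham offspring and Fzd7 in PM offspring. No window was then called in both, with adjusted p = 4.26e-06 for Fzd7 in Sham and 2.06e-06 for Wnt6 in PM offspring by limma. The study's supplement lists Fzd7 among genes of the DMRs it called in both kinds of offspring. The 3 windows lay in the receptor genes Fzd7 and Fzd8 and in the ligand gene Wnt6. Over all 259167 tested windows, 0.775% were DMRs for OVA in Sham and 0.584% for OVA in PM, so a count of 3 among 332 is close to the background. All p-values in this section are from limma with Benjamini-Hochberg adjustment over all tested windows, and each stated difference is one of group means.

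The Fzd7 DMR (ENSMUSG00000041075, chr1:59483704-59484455, 752 bp) lay wholly in the coding sequence of the single exon of this receptor gene, centred 1655.5 bases downstream of its start. The Sham libraries had %DNAm scores from 17.8 to 28.4 with a median of 19.4, and the Sham-OVA libraries from 24.3 to 44.7 with a median of 41.5. The PM libraries ranged from 12.4 to 22.9 with a median of 17.9, and the PM-OVA libraries from 32.0 to 46.8 with a median of 34.7. The groups overlapped in Sham offspring only through Sham-OVA replicate 7, which stood at 24.3 while the other Sham-OVA libraries were at 38.2 or above, and they did not overlap in PM offspring. In Sham offspring the mean was 21.0 ± 3.61 (SD, n = 7) without and 39.2 ± 6.95 (SD, n = 7) with OVA, a rise of 18.2 points (adjusted p = 4.26e-06 by limma). In PM offspring it was 18.3 ± 3.54 (SD, n = 7) without and 36.9 ± 5.42 (SD, n = 8) with OVA, a rise of 18.6 points (adjusted p = 5.19e-07 by limma).

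In Wnt6, a canonical ligand gene, the DMR (ENSMUSG00000033227, chr1:74782197-74783745, 1549 bp) held 582 exonic bases, none of them untranslated, and the intron between. Its %DNAm ranged from 26.6 to 33.9 in Sham, with a median of 32.6, and from 39.8 to 47.8 in Sham-OVA, with a median of 44.2. In PM it ranged from 27.9 to 38.5, with a median of 33.3, and in PM-OVA from 41.2 to 48.4, with a median of 45.4. Challenged and unchallenged libraries were fully apart in both kinds of offspring. The rise was 12.8 points in Sham offspring (adjusted p = 7.17e-07 by limma) and 11.3 points in PM offspring (adjusted p = 2.06e-06 by limma).

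Fzd8 (ENSMUSG00000036904), another single-exon receptor gene, held the remaining DMR of 1733 bp, of which 1301 bases are untranslated. Sham libraries ranged from 24.1 to 35.3 (median 30.9) and Sham-OVA libraries from 41.6 to 49.96 (median 47.5). PM libraries ranged from 27.3 to 38.4 (median 32.3) and PM-OVA libraries from 38.9 to 46.3 (median 44.0). The groups were again apart in both pairs, by a narrow gap in PM offspring. The rise was 16.2 points in Sham (adjusted p = 2.02e-07 by limma) and 11.1 points in PM (adjusted p = 1.66e-05 by limma), and the difference between these rises had an unadjusted p of 0.0558 and an adjusted p of 0.681 in the same fit. Without Sham replicate 1, the rise in Sham offspring was 18.0 points in Fzd7, 12.04 points in Wnt6 and 15.2 points in Fzd8, and all 3 DMRs were called.

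**Figure D1:**
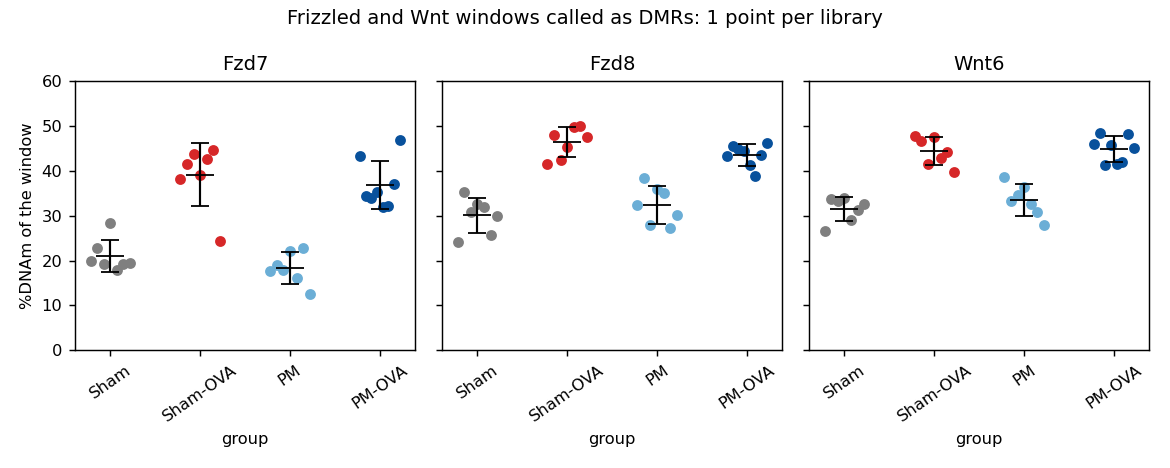
%DNAm of the DMR windows of Fzd7, Fzd8 and Wnt6 (vertical axis, percent) in each library by group (horizontal axis), with the mean and SD in black. The challenged groups sit above their controls in all panels, with Sham-OVA replicate 7 at 24.3 in Fzd7 as the exception among the Sham-OVA libraries.

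Non-overlapping groups were seen more widely than DMRs. Between Sham and Sham-OVA, 32 of the 332 windows did not overlap (9.64%, against 8.58% of all tested windows), 24 of them with Sham-OVA higher. Between PM and PM-OVA, 48 did not overlap (14.5%, against 11.99% of all tested windows), and in 13 of these PM-OVA was higher. The non-overlapping windows of the whole table were not split by direction, so these directions have no share to be set against.

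Along these 3 genes the first windows were nearly unmethylated and the DMR lay further in. In Fzd7 the windows centred 19.5 and 481.5 bases from the start had Sham means of 0.101% and 0.149%, and neither passed the test in either kind of offspring. The next window rose from 2.33% to 4.10% in Sham offspring (adjusted p = 0.0214 by limma), the DMR followed, and the last window of Fzd7 rose from 42.4% to 51.4% (adjusted p = 7.82e-06 by limma). In PM offspring that last window rose by 6.02 points (adjusted p = 0.000448 by limma).

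Fzd8 had a like profile at its start, with Sham means of 0.257%, 0.585% and 0.289% in its first windows. The last of these passed in PM offspring, from 0.310% to 0.942% (adjusted p = 0.00139 by limma), but not in Sham offspring, and the others passed in neither. The window before its DMR rose from 2.76% to 5.45% in Sham offspring (adjusted p = 0.000153 by limma). The final window beyond the DMR spans 9189 bp, of which only 1861 lie in the gene. It went the other way, falling by 3.98 points in Sham offspring (adjusted p = 0.000467 by limma) and by 4.88 points in PM offspring (adjusted p = 2.28e-05 by limma).

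In Wnt6 the DMR lay 11079 bases from the start, between a window at 65.6% in Sham and one at 2.53% in Sham. The window of low methylation just downstream rose by 2.08 points in Sham offspring (adjusted p = 0.000867 by limma) and by 1.65 points in PM offspring (adjusted p = 0.00281 by limma). The last window of Wnt6, by contrast, stood at 31.9% in Sham and 32.4% in Sham-OVA (adjusted p = 0.598 by limma). Of its 3586 bases, 922 lie in the gene.

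**Figure D2:**
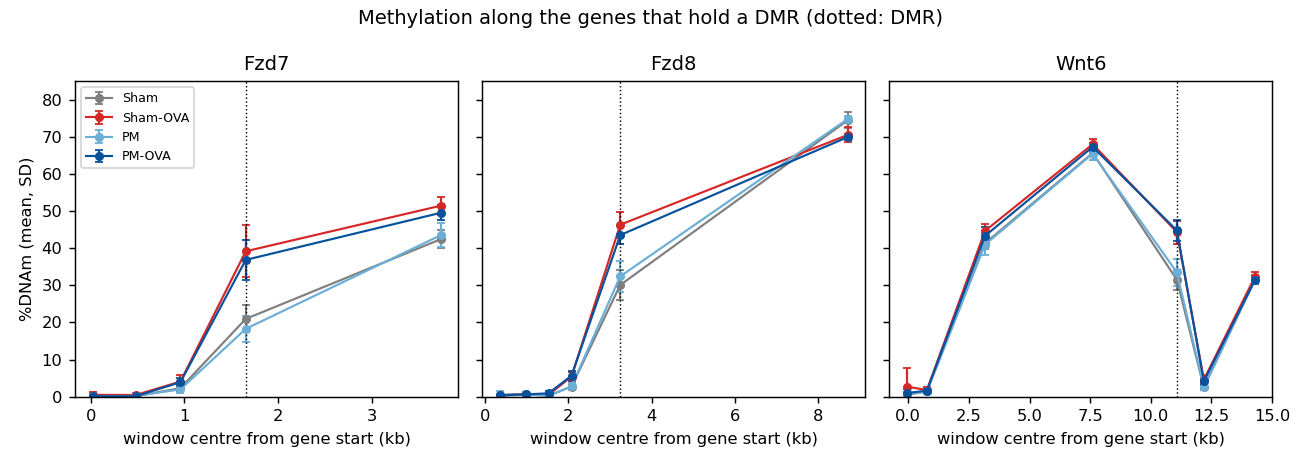
Mean %DNAm with SD (vertical axis, percent) of every window of Fzd7, Fzd8 and Wnt6 against the distance of its centre from the gene start (horizontal axis, kb), with a line per group and the DMR dotted. The groups part at the DMR of each gene, and in Fzd8 the challenged groups fall below their controls in the last window, most of which lies outside the gene.

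Across the members, more windows changed than the DMRs alone. For OVA in Sham, 86 of the 332 windows rose and 47 fell at an adjusted p under 0.05 by limma, while 199 did not pass. Over all windows 13.3% rose and 22.3% fell, against 25.9% and 14.2% here, and the median difference was 0.324 points here and -0.414 points over the table. For OVA in PM, 71 rose and 79 fell, which is 21.4% and 23.8% against 9.26% and 34.8% over all windows, with medians of 0.0218 and -1.03 points. Without Sham replicate 1, 76 rose and 49 fell for OVA in Sham. The balance of the PM count depends on centring. After centring each library, 111 windows were higher and 39 lower for OVA in Sham (33.4% and 11.7%, against 18.3% and 17.8% of all windows), and 108 were higher and 53 lower for OVA in PM (32.5% and 16%, against 18.9% and 18.7% of all windows). The direction was the same in Sham and PM offspring for 284 of 332 windows (85.5%, against 81.8% over the table), and 58 rose and 41 fell in both.

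Ligand windows were 62.7% of the members and held 54.9% of the calls for OVA in Sham and 54.0% for OVA in PM. Of the 208 Wnt windows, 51 rose and 22 fell for OVA in Sham (median 0.389 points), and 37 rose and 44 fell for OVA in PM (median 0.034 points). Of the 63 windows of Frizzled receptors, 20 rose and 8 fell for OVA in Sham (median 0.44 points), and 20 rose and 12 fell for OVA in PM (median 0.0627 points). The 8 windows of the Fzd10os transcript are not among these, and 2 of them rose and 4 fell in Sham offspring, then 2 and 6 in PM offspring. In shares, 24.5% of Wnt windows rose and 10.6% fell, then 17.8% and 21.15%, and of receptor windows 31.75% and 12.7%, then 31.75% and 19.05%. The shares of all windows were 13.3% and 22.3%, then 9.26% and 34.8%. Among all windows of 15 to 40 CpG per kb, where the median Wnt and receptor windows lie, they were 22.3% and 14.9%, then 16.8% and 21.6%.

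The inhibitor families differed from each other in their counts, although this difference was not tested. Of the 23 Sfrp windows, 8 rose and 2 fell in Sham offspring (median 0.876 points), and the counts were again 8 and 2 in PM offspring (median 0.591 points). Of the 30 Dkk windows, 5 rose and 11 fell in Sham offspring (median -1.36 points), and 4 rose and 15 fell in PM offspring (median -1.90 points). In shares, 34.8% of the Sfrp windows rose and 8.7% fell in both comparisons, and 16.7% of the Dkk windows rose and 36.7% fell in Sham offspring, then 13.3% and 50% in PM offspring. The shares of all windows were 13.3% and 22.3% in Sham offspring and 9.26% and 34.8% in PM offspring, and those of all windows under 15 CpG per kb, where the median Dkk window lies, were 10.6% and 26.0%, then 6.76% and 41.1%. Those of all windows of 15 to 40 CpG per kb, where the median Sfrp window lies, were 22.3% and 14.9%, then 16.8% and 21.6%. The Dkk windows had the lowest CpG density of the 4 families, at a median of 10.2 per kb, and the highest Sham %DNAm, at a median of 76.9%.

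**Figure D3:**
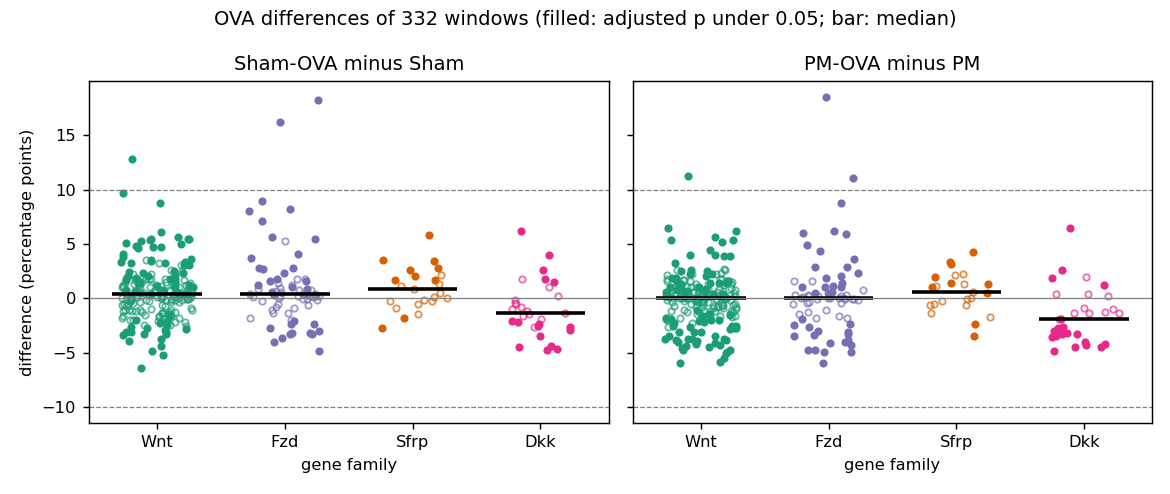
Difference in %DNAm after OVA (vertical axis, percentage points) of each of the 332 windows by gene family (horizontal axis), for Sham offspring on the left and PM offspring on the right, with filled points past an adjusted p of 0.05 and a bar at the median. Only 3 windows lie above 10 points in each panel, and the Dkk bar is the lowest of the families.

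The balance of calls differed with CpG density, which the selection did not use. Among windows of at least 40 CpG per kb, 35 of 93 rose and 1 fell for OVA in Sham, against 18.1% and 2.76% of all such windows in the table. Between 15 and 40 CpG per kb, 31 of 89 rose and 5 fell, against 22.3% and 14.9% of the table. Under 15 CpG per kb the direction was mostly the opposite, as 20 of 150 rose and 41 fell, against 10.6% and 26.0% of the table. In PM offspring, 35 rose and 1 fell in the densest class, against 15.4% and 3.59% of the table. Between 15 and 40 CpG per kb the PM counts were more even, at 21 rises and 15 falls, against 16.8% and 21.6% of the table. Under 15 CpG per kb, 15 of 150 rose (10%) and 63 fell (42%) in PM offspring, where 6.76% and 41.1% of the table did.

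At the gene starts most of these genes were nearly unmethylated. The start window is the window that holds the first base of the gene record, or the nearest one, which was at most 298 bases away. Its Sham mean was under 10% for 28 of 38 gene names (73.7%, against 19.6% of 36526 start windows in the table) and under 1% for 16. These starts were also more CpG-dense, at a median of 62.3 per kb against 11.2 per kb over all start windows. All windows of the table with at least 40 CpG per kb had a median Sham level of 0.614%. The lowest levels were those of the receptor genes Fzd7 (0.101%) and Fzd5 (0.112%) and of the ligand gene Wnt5b (0.154%), whose SDs of 0.0911, 0.184 and 0.158 (n = 7) leave their order open. The highest were those of the inhibitor gene Dkk4 (82.7% ± 2.05, SD, n = 7), Wnt8b (66.9% ± 1.73, SD, n = 7) and Wnt16 (57.5% ± 1.13, SD, n = 7), whose ranges over Sham libraries did not overlap. Of the 24 start windows with at least 40 CpG per kb, 23 were under 10% in Sham.

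**Figure D4:**
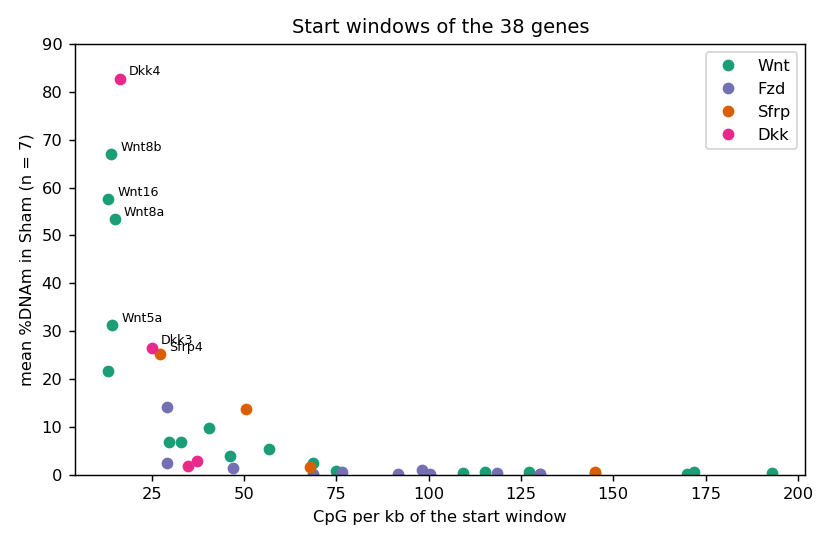
Mean %DNAm in Sham (vertical axis, percent, n = 7) of the start window of each of the 38 gene names against its CpG density (horizontal axis, CpG per kb), coloured by family, with the highest named. Dkk4 at 82.7% and Wnt8b at 66.9% stand among the CpG-poor starts, and nearly all CpG-dense starts lie under 10%.

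OVA raised 13 of the 38 start windows in Sham offspring and 11 in PM offspring, 7 of them in both at an adjusted p under 0.05 by limma. The number that fell was 0 in both, also at an unadjusted p under 0.05. Over all start windows of the table, 9.61% rose and 19% fell for OVA in Sham, and 6.72% rose and 31% fell for OVA in PM. Most starts in the table were more methylated than these, and among all windows with a Sham mean under 10%, 18.9% rose and 2.72% fell for OVA in Sham, and 16.6% rose and 3.40% fell for OVA in PM. None of these rises reached 10 points. The calls at Dkk2, Fzd9, Wnt11 and Wnt2b in Sham offspring, and at Dkk2, Dkk3, Fzd10, Sfrp2 and Sfrp5 in PM offspring, were lost without at least 1 of the libraries, those at Wnt2b and Fzd9 in Sham offspring also without Sham replicate 1 (adjusted p = 0.0506 and 0.0523 by limma). Fitted on the percent scale, the calls at Wnt2b, Fzd9 and Wnt11 in Sham offspring and at Sfrp2, Fzd10 and Sfrp5 in PM offspring did not pass, with adjusted p from 0.05 to 0.311 by limma. Both calls at Dkk2 and the PM calls at Fzd2, Fzd10os, Dkk3, Sfrp2 and Sfrp5 did not pass in a fit with the number in each library's name as a block (adjusted p from 0.0501 to 0.106 by limma).

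Among receptors, Fzd2 had the smallest p in Sham offspring, with Sham libraries from 1.32 to 4.25% and Sham-OVA libraries from 4.26 to 6.49%. These ranges were only just apart, and the rise was 2.84 points (adjusted p = 9.87e-06 by limma) in Sham and 1.18 points in PM offspring (adjusted p = 0.015 by limma). The start of Fzd10 ranged from 0.0588 to 1.04% in Sham and from 1.39 to 4.37% in Sham-OVA, without overlap (difference 2.30 points, adjusted p = 9.01e-05 by limma). Fzd10os, whose window adjoins it, rose by 1.63 points (adjusted p = 0.000712 by limma). The Fzd1 start rose from 0.843% to 1.87% in PM offspring (adjusted p = 0.00106 by limma), and stood at 1.32% and 1.58% in Sham and Sham-OVA (adjusted p = 0.315 by limma). Fzd9 rose by 0.632 points in Sham offspring (adjusted p = 0.0331 by limma), and the difference was 0.287 points without Sham-OVA replicate 5.

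Among ligands, the start of Wnt8a rose by 4.61 points in Sham offspring (adjusted p = 0.00109 by limma), that of Wnt1, the founding member of the family, by 2.48 points (adjusted p = 0.00296 by limma), and that of Wnt11, a largely non-canonical ligand, by 0.401 points (adjusted p = 0.0215 by limma). In PM offspring these starts did not pass, at 2.26 points (adjusted p = 0.0717 by limma), 1.36 points (adjusted p = 0.0789 by limma) and 0.122 points (adjusted p = 0.45 by limma). Conversely, the start of Wnt3a, a canonical ligand, rose by 1.86 points in PM offspring (adjusted p = 0.000971 by limma) against 0.716 points in Sham offspring (adjusted p = 0.263 by limma). Wnt2b passed in both, at 0.387 points (adjusted p = 0.0331 by limma) and 0.732 points (adjusted p = 0.00051 by limma).

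Among inhibitors, the Sfrp1 start rose by 1.67 points in Sham offspring (adjusted p = 0.000201 by limma) and by 1.06 points in PM offspring (adjusted p = 0.00413 by limma), with some overlap of libraries in both. Dkk3, a divergent member of its family, rose by 3.97 points (adjusted p = 0.00349 by limma) and 2.63 points (adjusted p = 0.0336 by limma), and Dkk2 by 1.47 points (adjusted p = 0.0239 by limma) and 1.23 points (adjusted p = 0.0167 by limma). Sfrp4 (3.55 points) and Dkk4 (2.60 points) passed in Sham offspring, and Sfrp5 (1.40 points) and Sfrp2 (0.530 points) in PM offspring. The Dkk2 and Dkk3 starts thus rose while most called Dkk windows fell.

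Averaged over all windows of a gene, 14 gene names rose and 4 fell for OVA in Sham, and 9 rose and 8 fell for OVA in PM, each fitted with limma over 38141 gene names. Over all gene names 11.9% rose and 27.5% fell for OVA in Sham, and 6.89% rose and 47.1% fell for OVA in PM. Centring each library gave 23 higher and 2 lower of the 38 for OVA in Sham and 25 higher and 1 lower for OVA in PM. After centring, 22.3% of all gene names were higher and 21.6% lower in the first comparison, and 25% and 24.1% in the second.

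Fzd7 had the largest rise of any receptor, from 12.5 to 15.7% over Sham libraries to 16.1 to 21.0% over Sham-OVA libraries, a difference of 5.95 points (adjusted p = 2.1e-07 by limma), and 5.29 points in PM offspring (adjusted p = 1.92e-07 by limma). Its groups did not overlap in either. Fzd3, a receptor of the planar cell polarity branch, had the largest fall, from 63.6 to 64.4% in Sham to 61.6 to 63.3% in Sham-OVA. The difference was -1.65 points (adjusted p = 7.24e-05 by limma), and in PM offspring it was -2.80 points (adjusted p = 1.46e-08 by limma), again without overlap in either pair. Fzd4 (4.32 and 4.14 points), Fzd2 (3.42 and 2.69 points) and Fzd8 (2.60 and 1.60 points) also rose in both kinds of offspring.

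Wnt8a led the ligands in Sham offspring at 4.44 points (adjusted p = 0.000119 by limma), where its groups were apart, and was at 1.90 points in PM offspring (adjusted p = 0.0441 by limma), where they overlapped and the call was lost with the median over windows (adjusted p = 0.26 by limma) and on leaving out PM replicate 3, 4, 5 or 7 or PM-OVA replicate 1, 2, 3 or 7 (adjusted p up to 0.101 by limma). Wnt10a (3.41 and 2.45 points) and its neighbour Wnt6 (3.38 and 2.53 points) followed in Sham offspring and exceeded Wnt8a in PM offspring. With the median over windows in place of the mean, Wnt6 did not pass (adjusted p = 0.106 and 0.554 by limma). Wnt11 fell most among ligands in Sham offspring, by 0.841 points (adjusted p = 0.0176 by limma), and in PM offspring fell by 1.04 points (adjusted p = 0.00207 by limma), but neither call held after centring, where its PM difference was 0.0279. Wnt9b had the largest fall of a ligand in PM offspring, 1.68 points (adjusted p = 0.00137 by limma), against a difference of -0.138 points in Sham offspring (adjusted p = 0.822 by limma). After centring, the Wnt9b difference in PM offspring was -0.614 points and did not pass (adjusted p = 0.386 by limma).

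Among inhibitors, Sfrp4 had the largest Sfrp difference in Sham offspring, 1.802 points (adjusted p = 0.0262 by limma), a call that was lost on leaving out Sham replicate 6 or 7 or Sham-OVA replicate 4, 6 or 7 (adjusted p up to 0.0714 by limma). In PM offspring it was at 1.02 points (adjusted p = 0.164 by limma), and at 2.08 points after centring, where it passed (adjusted p = 0.0004 by limma). Sfrp5 had the largest difference of the family in PM offspring, 1.12 points (adjusted p = 0.0414 by limma), a call that was lost on leaving out PM replicate 2, 5, 6 or 7 or PM-OVA replicate 3, 5, 6, 7 or 8 (adjusted p up to 0.102 by limma). In Sham offspring Sfrp5 stood at 0.958 points (adjusted p = 0.11 by limma), and at 1.417 points after centring, where it passed (adjusted p = 0.0152 by limma). Sfrp2 had the smallest, 0.356 points in Sham offspring (adjusted p = 0.469 by limma) and 0.0745 points in PM offspring (adjusted p = 0.876 by limma), and passed in both after centring (0.816 and 1.14 points). With the median over windows, its PM difference was 2.14 points and passed (adjusted p = 0.0412 by limma). Dkk2 fell by 1.484 points in Sham offspring (adjusted p = 0.00302 by limma) and by 1.72 points in PM offspring (adjusted p = 0.000365 by limma), the latter call being lost after centring (-0.65 points, adjusted p = 0.0575 by limma). Dkk1, the best known LRP-blocking inhibitor, was at 37.1% in Sham and 37.2% in Sham-OVA (adjusted p = 0.925 by limma). Without Sham replicate 1, the gene mean differences for OVA in Sham were 5.84 points for Fzd7, -1.61 for Fzd3, 4.03 for Wnt8a, 3.22 for Wnt6, -0.891 for Wnt11, 1.93 for Sfrp4, 0.814 for Sfrp5, 0.283 for Sfrp2 and -1.37 for Dkk2, each on the same side of the threshold as with it. That of Dkk1 was then -0.22 points, of the opposite sign and again not past the threshold.

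**Figure D5:**
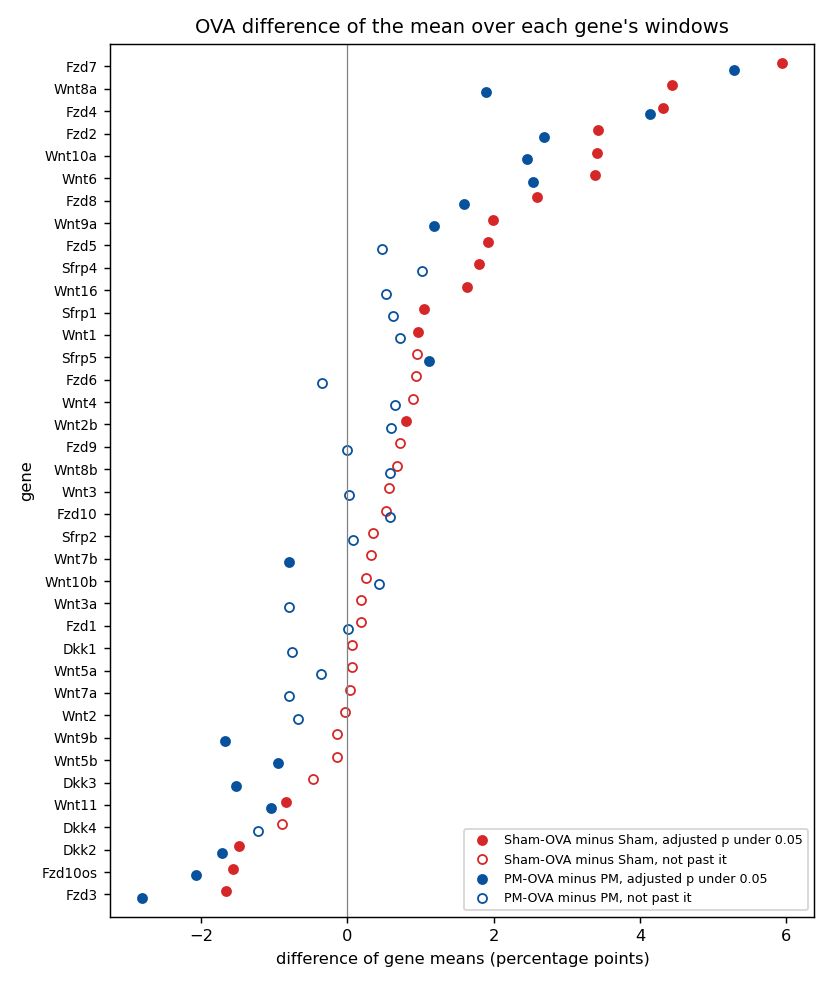
Difference in mean %DNAm after OVA (horizontal axis, percentage points) of each of the 38 gene names (vertical axis, ordered by the difference in Sham offspring), in red for Sham and blue for PM offspring, filled where the adjusted p was under 0.05. Fzd7 is at the top with 5.95 and 5.29 points and Fzd3 at the bottom with -1.65 and -2.80 points.

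Maternal PM2.5 gave no call among the members. The following comparisons bear on it, namely PM against Sham without OVA (PM without OVA), PM-OVA against Sham-OVA (PM with OVA) and the interaction, in which the OVA difference of Sham offspring is subtracted from that of PM offspring. In each, 0 of 332 windows and 0 of 38 gene names passed an adjusted p of 0.05 by limma, and the share over all windows was 0%, as it was over all gene names. At an unadjusted p under 0.05 there were 2, 3 and 5 of the 38 gene names in the order given, where 5.82%, 6.88% and 10.3% of all gene names passed. At an unadjusted p under 0.05, the member windows numbered 15 for the first, 24 for the second and 30 for the interaction, where 5.79%, 5.96% and 7.4% of all windows passed. These comparisons share libraries with each other and with the OVA comparisons.

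The smallest p for PM without OVA was that of an intronic window of Wnt5b, a non-canonical ligand gene (chr6:119529860-119534398). Its Sham libraries ranged from 71.2 to 74.2% and its PM libraries from 73.1 to 77.0%, which overlap, and the difference was 2.31 points (unadjusted p = 0.00613, adjusted p = 0.812 by limma). For PM with OVA and for the interaction it was the same window of Wnt7a, a ligand gene (chr6:91358836-91364334), of which 354 bases lie in the gene, all of them untranslated. There Sham-OVA ranged from 73.2 to 80.6% and PM-OVA from 72.0 to 75.6%, a difference of -3.01 points (unadjusted p = 0.00134, adjusted p = 0.796 by limma). Its OVA difference was -1.06 points in Sham offspring and -4.90 points in PM offspring, an interaction of -3.84 points (unadjusted p = 0.00325, adjusted p = 0.556 by limma).

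By gene mean, the smallest p was that of Wnt9b for PM without OVA (0.943 points, unadjusted p = 0.0348, adjusted p = 0.822 by limma). For PM with OVA it was that of Fzd3 (-0.743 points, unadjusted p = 0.0144, adjusted p = 0.72 by limma), which also had the smallest p for the interaction (-1.15 points, unadjusted p = 0.00851, adjusted p = 0.462 by limma).

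All 62 listed genes of the rest of the pathway were found, in 1161 windows. Over these, 246 windows rose and 223 fell for OVA in Sham (median 0.0744 points), and 184 rose and 359 fell for OVA in PM (median -0.469 points). That is 21.2% and 19.2% in Sham offspring and 15.8% and 30.9% in PM offspring, beside the 13.3%, 22.3%, 9.26% and 34.8% of all windows. The lists held 11 DMRs for OVA in Sham and 5 for OVA in PM, where 0.775% and 0.584% of all windows were DMRs. Among co-receptors and alternative receptors, 45 of 210 windows rose and 44 fell in Sham offspring, and 37 rose and 72 fell in PM offspring. The pseudokinase gene Ptk7 held both DMRs of this list, the larger from 42.0% to 56.4% in Sham offspring and from 42.7% to 54.4% in PM offspring. For Wnt processing and release (16 windows), 1 rose and 5 fell, then 1 and 7.

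Among other Wnt antagonists (121 windows), 29 rose and 20 fell in Sham offspring and 26 rose and 30 fell in PM offspring, with a DMR in Rnf43, a ligase gene that removes Frizzled receptors (67.3% to 77.4% in Sham offspring). R-spondins and their receptors, which counter that removal, held 0 DMRs in 129 windows, with 15 rises (11.6%) and 29 falls (22.5%), then 13 (10.1%) and 52 (40.3%), close to the shares of all windows in Sham offspring. For cytoplasmic beta-catenin control (173 windows), 55 rose (31.8%), 15 fell (8.67%) and 103 did not pass in Sham offspring, then 43 rose (24.9%), 23 fell (13.3%) and 107 did not pass in PM offspring, beside the 13.3% and 22.3%, then 9.26% and 34.8%, of all windows. Its 2 DMRs for OVA in Sham lay in Nkd1, an antagonist that acts on Dishevelled, at 11.0 and 11.6 points.

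TCF/LEF factors and co-activators had 49 rises and 76 falls in 263 windows for OVA in Sham, then 29 and 106 for OVA in PM. These are 18.6% and 28.9%, then 11% and 40.3%, beside 13.3% and 22.3%, then 9.26% and 34.8%, of all windows. The co-activator gene Bcl9l held a DMR that rose from 20.4% to 37.9% in Sham and from 21.4% to 39.1% in PM offspring, and another that rose by 15.3 and 12.9 points. Tcf7l2, a TCF factor gene, held the only falling DMR of the pathway lists, from 73.0% to 60.3% in Sham and from 73.8% to 59.3% in PM offspring. Planar cell polarity genes had 52 rises (20.9%) and 34 falls (13.7%) in 249 windows, then 35 (14.1%) and 69 (27.7%), with DMRs in Prickle1 (12.9 and 11.0 points), Prickle2 (11.6 and 8.78 points) and Daam1 (11.3 and 8.88 points), of which that of Prickle1 was called in both kinds of offspring.

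Markers of other cell types differed between the OVA groups and their controls to unequal extents. For each list, the mean over its windows, minus the mean over all tested windows of the same library, was compared between groups. For 10 pan-leukocyte genes (92 windows) it lay from 1.09 to 1.87 points in Sham and from -2.76 to -0.878 in Sham-OVA, and from 0.764 to 2.00 in PM and from -2.40 to -0.570 in PM-OVA, with no overlap. For eosinophil and granulocyte genes (27 windows) it lay from -0.408 to 0.207 points in Sham and from -3.71 to -1.42 in Sham-OVA, and from -0.423 to 0.200 in PM and from -3.06 to -1.60 in PM-OVA, again apart.

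The epithelial list (51 windows) lay from -17.4 to -16.2 points in Sham and from -15.3 to -14.7 in Sham-OVA, and from -16.7 to -16.1 in PM and from -15.8 to -14.5 in PM-OVA, apart in both and higher after OVA. The endothelial list (161 windows) was apart in Sham offspring, at -3.49 to -2.46 points in Sham and -1.76 to -1.14 in Sham-OVA, and overlapped in PM offspring, at -3.75 to -1.80 points in PM and -1.93 to -1.02 in PM-OVA. The ranges of the T cell, B cell (7 of 8 genes found), macrophage and mesenchymal (8 of 10 genes found) lists overlapped in both kinds of offspring. For T cell genes they were -1.44 to -0.65 points in Sham and -1.77 to -1.19 in Sham-OVA, and -1.46 to -0.341 in PM and -1.73 to -0.61 in PM-OVA.

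By calls, 25% of the pan-leukocyte windows rose and 47.8% fell for OVA in Sham, then 17.4% and 54.3% for OVA in PM, beside 13.3% and 22.3%, then 9.26% and 34.8%, of all windows. Of the eosinophil and granulocyte windows 3.7% rose and 48.1% fell, then 0% and 51.9%. The shares of T cell windows (14.8% and 30.3%, then 9.02% and 41%) and macrophage windows (12.5% and 30.4%, then 8.93% and 41.1%) were nearer to those of all windows, and those of B cell windows were 25% and 27.6%, then 19.7% and 35.5%. Of 92 pan-leukocyte and 76 B cell windows, 19 and 6 were DMRs for OVA in Sham, and 17 and 5 for OVA in PM. Eosinophil and granulocyte windows held 2 for OVA in Sham and 0 for OVA in PM, and T cell and macrophage windows 1 each in both comparisons. The endothelial list held 5, then 3, the epithelial list 1, then 0, and the mesenchymal list 0 in both. Over all windows, 0.775% and 0.584% were DMRs. All of the pan-leukocyte DMRs were lower after OVA, as were all but 1 of the B cell DMRs in each comparison. Start windows of B cell genes averaged 63.4% in Sham and 55.4% in Sham-OVA, and 64.1% in PM and 55.5% in PM-OVA. The endothelial windows had 33.5% and 19.9%, then 29.2% and 29.2%, the epithelial windows 31.4% and 7.84%, then 17.6% and 11.8%, and the mesenchymal windows 20.9% and 25.3%, then 11% and 31.9%. Start windows of the epithelial and mesenchymal lists averaged 40.1% and 24.8% in Sham, below the 62.8% of eosinophil and granulocyte genes and the 54.7% of pan-leukocyte genes. The part of these cell types in the differences of the Wnt, Fzd, Sfrp and Dkk windows was not tested.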

How the data were processed

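WGMS values of 29 lung libraries were analysed. Per the study's methods, the authors converted the DNA enzymatically and used Trim Galore on the reads. They used DRAGEN (version 3.10) for alignment to GRCm38 and methylation calls, and averaged the calls in SeqMonk (version 1.48.1) over windows of 100 CpGs. The median window of the table held 50 CpG dinucleotides, so the 100 were read here as cytosines on both strands. The deposited values are a percent methylation per window and library, with no stated normalisation between libraries and without replicate pooling. Read counts were not used here. The methods give a mean sequencing yield and coverage per library, but the depth behind each window's value is unknown, so precision rests on the number of libraries.

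Windows were placed on GENCODE M21. Testing required 3 or more values in each group, so 259167 windows were kept and 1519 removed. The log2 ratio of methylated to unmethylated percent, each plus 1 point, was fitted for the 4 groups in all libraries with limma (version 3.58.1, R 4.3.3), taking 2-sided p-values adjusted by Benjamini-Hochberg over every tested window. A count model could not be used on percentages. Gene means were averages over windows with the same gene name, fitted likewise. On simulated data, 199 of 200 changed windows among 259167 were recovered for OVA in Sham, with 11 false calls. All 199 recovered windows met the DMR definition, so this recovery applies to changes of that size. Recovery of smaller differences, such as those at the start windows, was not tested. Tables were handled with Python 3.11.15 and pandas.

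Named were all DMRs, all called start windows with the 3 lowest and 3 highest Sham means, the largest rise and fall of gene means per family for OVA in Sham, the smallest p for maternal comparisons, and DMRs of the pathway lists. The largest gene mean changes for OVA in PM, and further gene means, were chosen after their values were seen. The members, lists and tests were chosen with earlier results of these data known. Alternatives covered the scale, offset, complete windows, p threshold, minimum difference, centring, replicate number, groups fitted, moderation, gene median and leaving out each library, the last for gene means chosen after seeing the data. Windows of the X and Y chromosomes that had enough values were kept in the fit and the adjustment. RNA data were not analysed here.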

Additional observations from a re-analysis of the deposited data

Results flagged for a closer look

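Within each group, the highest and lowest library of every named window and gene mean was compared with the rest by Dixon's criterion, for 132 sets of 7 or 8 libraries. In 12 of them (9.09%) a library stood apart. The criterion flags about 1 in 20 sets when these are independent and normally distributed. Here some sets lie near the lower limit of the scale and some share windows, so that rate need not hold. The cause was not tested.

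In the Fzd7 DMR, Sham-OVA replicate 7 was at 24.3%, with the next lowest at 38.2%, and the OVA difference in Sham offspring was 20.7 points without it against 18.2 with it. The Fzd7 gene mean of Sham replicate 4 was 15.7%, with the next highest at 13.5%. In the Dkk3 start window, PM replicate 4 was at 31.0% (next 26.8%) and PM-OVA replicate 3 at 23.7% (next 28.9%). At the Fzd9 start, where all levels were low, Sham replicate 6 was at 0.299%, Sham-OVA replicate 5 at 2.87% and PM replicate 7 at 1.05%, and the rise in Sham offspring was 0.287 points without Sham-OVA replicate 5 against 0.632 with it. PM-OVA replicate 7 was at 3.92% at the Sfrp1 start (next 1.86%), and Sham replicate 7 at 16.2% at the Sfrp5 start (next 14.2%). For gene means of Dkk1, Sham replicate 1 was lowest at 35.4% and PM-OVA replicate 1 highest at 38.1%, and for Fzd3 PM replicate 1 was highest at 65.2%.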

How the results depend on the processing

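The 3 DMRs and the counts of windows and genes past the threshold stayed within 1.5 times under all alternatives except those given here. With the study's threshold of 0.000001 set on the limma p-values in place of those of EdgeR, 4 member windows passed for OVA in Sham and 3 for OVA in PM. At it, 2 DMRs (Wnt6 and Fzd8) were called for OVA in Sham and 1 (Fzd7) for OVA in PM. With a minimum of 5 points, 24 DMRs were called for OVA in Sham (22 higher) and 19 for OVA in PM (14 higher). Centring each library gave 26 genes for OVA in PM, and the gene mean differences of Wnt11 (0.0279) and Dkk1 (0.306) in PM offspring and of Wnt9b (0.322) in Sham offspring turned positive. Leaving out 1 library gave 3 to 4 DMRs for OVA in Sham and 3 for OVA in PM, 123 to 135 and 134 to 152 windows, 15 to 19 and 15 to 18 genes, and 0 for every maternal comparison. Without Sham replicate 1, the library with Y-linked values, there were 3 DMRs in each OVA comparison, 125 and 150 windows, and 17 genes in each. The gene mean of Dkk1 for OVA in Sham ranged from -0.2201 to 0.1736 over these runs, being -0.2201 without Sham replicate 1, -0.08028 without Sham-OVA replicate 2 and -0.01638 without Sham-OVA replicate 6, that of Wnt9b for OVA in Sham from -0.3429 to 0.0968, being positive without Sham replicate 2 and Sham-OVA replicates 5 and 6, and that of Sfrp2 for OVA in PM from -0.06558 (without PM-OVA replicate 1) to 0.1646, and none of these is a called value. Adjusted p rose above 0.05 on leaving out a single library for 9 calls at start windows (up to 0.123 for Sfrp5) and for the gene means of Wnt8a (up to 0.101) and Sfrp5 (up to 0.102) in PM and Sfrp4 in Sham offspring (up to 0.0714). Libraries with the same replicate number in their titles deviated together little (r from -0.0705 to 0.13, 42 pairs, with 9 of 29 libraries best matched to their own number), so the numbers do not pair the samples, and a replicate block gave 138 and 137 windows and 3 DMRs each. The start windows of Fzd10 (adjusted p = 0.0666) and Dkk3 (0.0653) and the gene mean of Sfrp5 (0.09) in PM offspring did not pass with the block. The names of the deposited libraries give 10 libraries another number or none. By those numbers r ranged from -0.0444 to 0.13 (36 pairs, 6 of 27 libraries best matched to their own number), and a block on them, chosen after seeing the data, gave 133 and 131 windows and 3 DMRs each. With it the start windows of Dkk2 in Sham offspring (adjusted p = 0.0618) and of Dkk2 (0.0683), Fzd2 (0.106), Fzd10os (0.0501), Dkk3 (0.0839), Sfrp2 (0.0549) and Sfrp5 (0.0744) in PM offspring did not pass. Leaving aside the stricter p threshold and single libraries, 18 calls of named windows and gene means were lost under at least 1 setting, besides that of Wnt11 in PM offspring, and 4 differences passed that had not. The cause of these changes was not tested, apart from fewer windows passing a stricter threshold. Depth per value is unknown, so the counting error of levels near 0% could not be estimated.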
